A study of Sus scrofa with 20 samples.

Results

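Testis RNA of 11 Norsvin Duroc boars was compared between 6 boars with a high and 5 boars with a low sperm DNA fragmentation index (DFI). These are 11 of the 20 samples of the series, chosen by the breed and group given in the sample labels, and every gene above 1 CPM (count per 1000000 reads) in at least 6 of the 11 libraries was kept, which left 14666 of 21717 listed genes (67.5%). The other 9 samples are Landrace boars and were not used. DFI is the share of sperm cells with DNA that denatures in acid, measured by flow cytometry. It was 1.05%, 1.13%, 1.07%, 1.11% and 1.08% in low DFI boars 1 to 5, and 5.36%, 4.13%, 4.14%, 5.63% and 4.69% in high DFI boars 1 to 5 and 4.77% in high DFI boar 6. The boars were chosen for their extreme DFI, so DFI itself is not a result here. Each boar gave 1 library from unsorted testis tissue, and the comparison asks how the testis transcriptome differs between boars whose sperm carry much or little fragmented DNA.

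In the testis, germ cells pass from spermatogonia through meiosis to round and elongating spermatids, which build an acrosome and a tail and replace their histones by transition proteins and then protamines, so that the DNA is tightly packed. Sertoli cells surround and feed the germ cells inside the tubules, peritubular myoid cells and extracellular matrix form the tubule wall, and Leydig cells between the tubules make androgens from cholesterol. RNA of a piece of testis is a mixture of all these cells. In such bulk RNA, fewer cells of a type and less RNA per cell of that type cannot be told apart.

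The libraries held 34527935 to 47621706 counted reads, and normalization factors lay between 0.952 and 1.08. Within a group, the counts of any pair of boars differed by more than sampling noise (chi-square per degree of freedom of 17.2 to 72.7 over 25 pairs), so each boar was counted as 1 replicate. Of the kept genes, 13758 were above 1 CPM in all 11 boars. The 143 genes just inside the filter, above 1 CPM in exactly 6 boars, had a median of their mean levels of 1.09 CPM, and the 107 genes just outside it, above 1 CPM in exactly 5 boars, had 1.01 CPM. Above 1 CPM in all 6 high and in no low DFI boar were 2 genes, and 0 genes showed the opposite. The filter could keep a gene above 1 CPM in the 6 high DFI boars alone, but not one in the 5 low DFI boars alone. The first principal component of log2 CPM (29.8% of the variance) ran from -38.4 to 3.0 in the low DFI boars and from 3.6 to 24.6 in the high DFI boars. The groups therefore met without overlapping, with low DFI boar 5 and high DFI boar 5 next to each other. Low DFI boar 3 lay at one end and high DFI boar 4 at the other, and high DFI boar 4 also stood apart on the second component (17% of the variance). Where leaving out either of them moved a printed logFC or list median by over 1.5 times, the value without it is given.

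Defining markers of testis were present in every boar. The protamine PRM1 lay between 3072 and 5524 CPM, the Leydig cell hormone INSL3 between 377 and 2843 CPM and the Sertoli cell factor WT1 between 29.1 and 41.1 CPM. Of the markers of other tissue that a piece could hold, 3 of 10 T lymphocyte and 2 of 8 red blood cell markers passed the filter. The T cell markers were mixed in level. The T cell receptor chain CD3D had 0.0543 to 0.289 CPM, CD4 2.01 to 5.78 CPM, CD2 6.32 to 10.3 CPM and CD247 66 to 129 CPM. Many listed markers have no identifier in the symbol table used here, so these numbers cover only the members that could be looked up.

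Over the whole range, differences between the groups were small for most genes and went both ways. The median log2 fold change (logFC, high against low DFI) of the 14666 genes was 0.01, 90% of them lay between -0.29 and 0.52, and 7067 genes (48.2%) were lower in the high DFI boars. With the quasi-likelihood F-test of edgeR, 2 genes had an adjusted p under 0.05, or 0.0136% of those tested. At an unadjusted p under 0.05, 1656 genes (11.3%) were higher and 1451 (9.89%) were lower, where 733 in both directions together are the average without any effect. These counts describe the spread of the data and are not calls. In the likelihood ratio test with tagwise dispersion, which the study itself used, 293 genes (2%) were higher and 83 (0.566%) lower at an adjusted p under 0.05. The values of the groups did not overlap for 279 genes (1.9%) that were higher and 203 genes (1.38%) that were lower in the high DFI boars.

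The share of lower genes among those at an unadjusted p under 0.05 was 46.7%. It was 49.6% with RLE normalization and 50.1% with DESeq2, but 23.9% when the counts were scaled to library totals alone (2435 higher and 764 lower), a scaling that moved the median of all genes to 0.07. How large the lower share is thus depended on the scaling. Without low DFI boar 5, 17 genes had an adjusted p under 0.05 (15 higher, 2 lower), and without any other boar 0 did, while 2236 to 3332 genes then had an unadjusted p under 0.05.

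**Figure D1:**
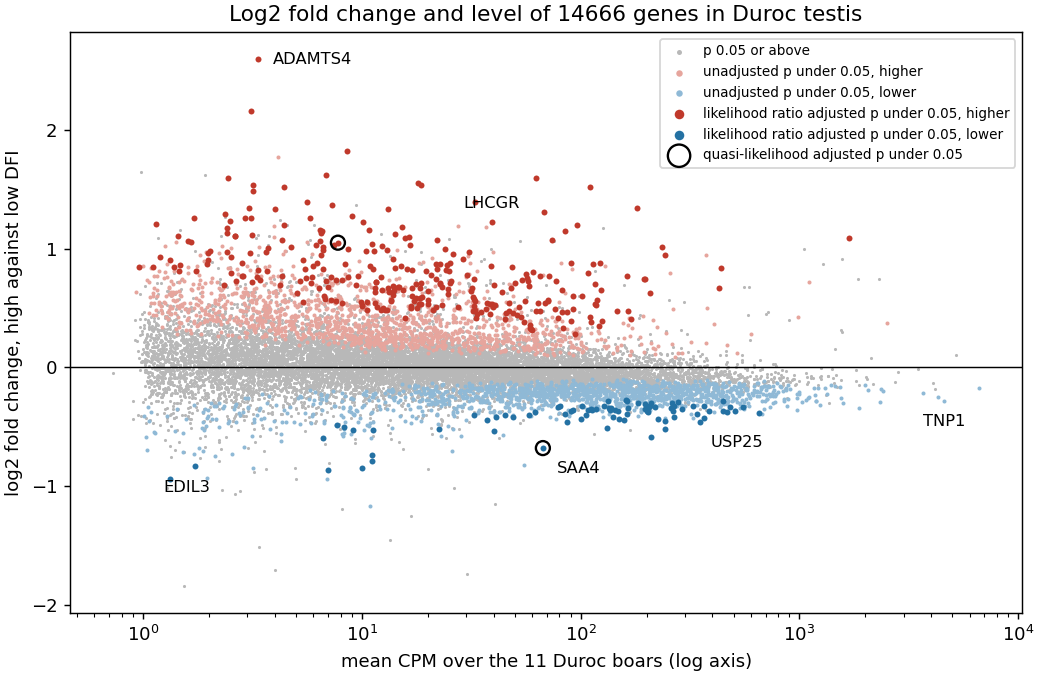
Each point is 1 of 14666 genes, with its mean CPM over the 11 Duroc boars on a log axis and its log2 fold change of high against low DFI boars on the vertical axis. Coloured points passed the thresholds named in the key, and the open circles mark the 2 genes called by the quasi-likelihood F-test. The lower genes form a narrow band at the right, and the higher genes spread further from 0 at low and middle levels.

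Genes that were lower and genes that were higher in high DFI boars differed in level and in size of difference. When the kept genes were split into quartiles by their mean log2 level, 488 genes of the least abundant quartile (0.538 to 5.34 CPM) were higher and 82 were lower at an unadjusted p under 0.05. In the next quartile (5.35 to 18.5 CPM) these numbers were 578 and 130, and in the following one (18.5 to 60.2 CPM) 395 and 289. In the most abundant quartile (60.2 to 6570 CPM) the order turned, with 195 higher and 950 lower genes. Lower genes thus made up 14.4% of such genes in the least and 83% in the most abundant quartile. The median logFC went from 0.10 in the least to -0.08 in the most abundant quartile, where 73.3% of all genes were lower. With library totals alone the lower share in these quartiles was 4.95% and 60.5%, with RLE it was 16.3% and 85%, and without each boar in turn it stayed between 11.7% and 19% in the least and between 79.8% and 86.6% in the most abundant quartile.

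The lower genes also differed by less. At an unadjusted p under 0.05 the median size of the logFC was 0.40 for higher and 0.24 for lower genes. A logFC above 0.5 was found in 804 genes and one below -0.5 in 121, of which 603 and 53 had an unadjusted p under 0.05. Beyond 1 on either side there were 99 higher and 14 lower genes, of which 76 and 1 did. Within the most abundant quartile alone, the median sizes were 0.29 for higher and 0.22 for lower genes. Levels in CPM are not corrected for gene length, so the quartiles order genes by their reads.

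**Figure D2:**
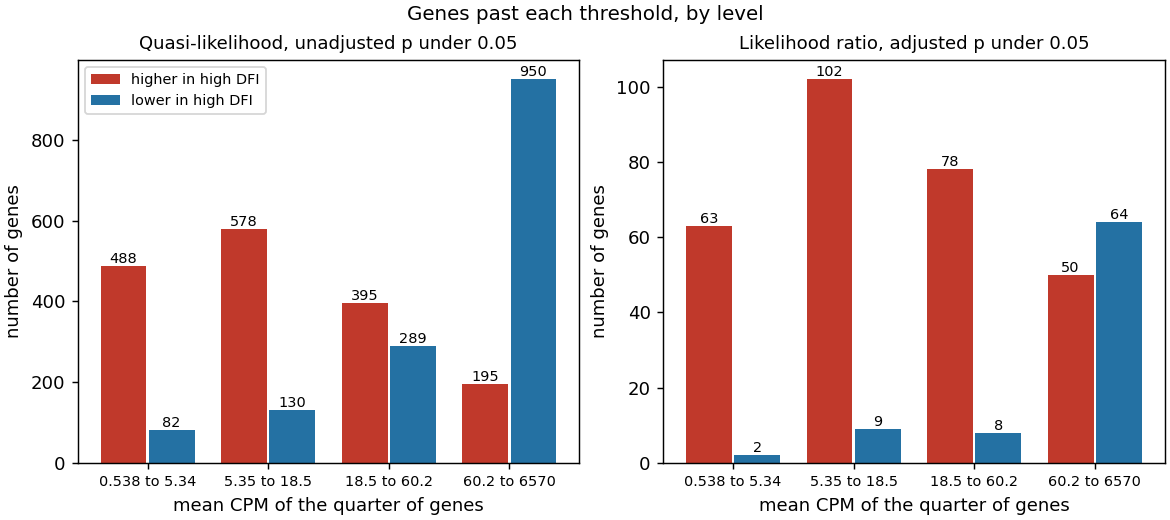
Bars give the number of genes in each quartile of level, with the range of mean CPM under each pair of bars, that were higher or lower in high DFI boars. Past the unadjusted threshold (left) lower genes outnumbered higher genes in the most abundant quartile only, by 950 to 195, and among genes called by the likelihood ratio test (right) they did so by 64 to 50.

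The 2 genes that passed the quasi-likelihood test went in opposite directions. SAA4 (ENSSSCG00000021847), a serum amyloid A protein that is carried on lipoproteins, had 73.9, 88.0, 96.3, 93.8 and 70.8 CPM in the low DFI boars and 51.4, 58.2, 46.7, 53.5, 55.0 and 51.9 CPM in the high DFI boars. The groups did not overlap, and the high DFI boars varied less. SAA4 fell with a logFC of -0.68 (SE 0.09, adjusted p = 0.0368), and its adjusted p was 0.0093 to 0.13 with 1 boar left out. ENSSSCG00000028503, which has no symbol in the table used here, had 5.30, 4.09, 4.20, 4.32 and 6.64 CPM in the low DFI boars and 8.66 to 11.5 CPM in the high DFI boars. It rose with a logFC of 1.05 (SE 0.14, adjusted p = 0.0368), with low DFI boar 5 as the nearest to the other group. Its adjusted p with 1 boar left out was 0.0032 to 0.13.

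No other gene passed: the next adjusted p was 0.112, and the genes described from here on are given as values that did not pass the quasi-likelihood test. Among the 203 genes that were lower in every high DFI boar, the 12 with a symbol and the smallest p were CCT6B, DGKH, USP25, MMP13, HAUS6, CCDC158, CBLC, CEP95, EDIL3, CEP57, SPATA6L and FHAD1. Of these 12, 9 passed the likelihood ratio test, and HAUS6, CCDC158 and CEP95 did not. They include centrosome and spindle proteins (HAUS6 of the augmin complex, CEP57 and CEP95), a testis form of a chaperonin subunit (CCT6B) and a relative of the sperm neck protein SPATA6 (SPATA6L).

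CCT6B had 149, 144, 142, 151 and 149 CPM in the low DFI boars and 122, 117, 114, 118, 130 and 123 CPM in the high DFI boars. Its logFC was -0.29 (SE 0.05, adjusted p = 0.11), and the spread within each group was small. The diacylglycerol kinase DGKH had 324, 238, 278, 204 and 243 CPM against 190, 174, 176, 153, 186 and 149 CPM, with a logFC of -0.59 (SE 0.11). Low DFI boar 4 and high DFI boar 1 were nearest to each other. The deubiquitinase USP25 had 357 to 492 CPM in the low and 244 to 332 CPM in the high DFI boars, with a logFC of -0.46 (SE 0.09). FHAD1, a protein with a forkhead-associated domain, had 471, 537, 542, 473 and 451 CPM against 425, 407, 412, 368, 431 and 393 CPM. Its groups lay close together, with a logFC of -0.28 (SE 0.06). CCDC158, a coiled-coil protein, had 433 to 460 CPM in the low and 344 to 397 CPM in the high DFI boars, a logFC of -0.24 (SE 0.05).

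Other named lower genes lay at lower levels. EDIL3, DCT, AMBP and PAPPA were named for the smallest logFC among genes with a symbol that passed the likelihood ratio test. Their large differences follow from that choice and say nothing about level. EDIL3, an integrin ligand of the matrix, had 2.46, 3.01, 2.23, 1.77 and 1.95 CPM in the low and 1.17, 1.55, 1.03, 0.988, 1.67 and 1.31 CPM in the high DFI boars, a logFC of -0.84 (SE 0.18). The collagenase MMP13 had 8.08 to 10.6 CPM in the low and 5.63 to 7.46 CPM in the high DFI boars (logFC -0.48, SE 0.10). DCT, an enzyme of melanin synthesis, had the smallest logFC of the named genes that passed the likelihood ratio test, at -0.94 (SE 0.25). It had 1.90, 2.07, 1.78, 2.40 and 0.878 CPM in the low and 0.679 to 1.33 CPM in the high DFI boars, so that low DFI boar 5 lay among the high DFI boars. AMBP, the precursor of a plasma protease inhibitor, followed with a logFC of -0.85 (SE 0.23) and groups that overlapped, 8.15 to 20.6 CPM against 5.04 to 9.27 CPM. PAPPA, a protease that frees insulin-like growth factors, had 21.3 CPM in low DFI boar 3 and 11.3 to 14.1 CPM in the other low DFI boars, against 4.81 to 14.5 CPM (logFC -0.79, SE 0.25).

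Among the 279 genes that were higher in every high DFI boar, those with a symbol and the smallest p included ACAA1, CNP, GIMAP6, TXLNA, ITIH5, MCOLN1, RABEP2, FBLN5, NNT and MCCC2, and all 10 passed the likelihood ratio test. Several work in metabolism (the peroxisomal thiolase ACAA1, the NADPH-forming transhydrogenase NNT of mitochondria, and MCCC2 of leucine breakdown) or in endosomes and lysosomes (MCOLN1, a lysosomal cation channel, and RABEP2). Others are proteins of the extracellular matrix (ITIH5 and FBLN5).

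CNP, a cyclic nucleotide phosphodiesterase best known from myelin, had 13.4, 17.5, 13.6, 16.0 and 16.6 CPM in the low and 24.5, 27.1, 22.8, 19.0, 25.5 and 25.5 CPM in the high DFI boars. Its logFC was 0.64 (SE 0.11, adjusted p = 0.11), and high DFI boar 4 came nearest to the low group. ITIH5, which binds hyaluronan, had 10.5, 7.90, 12.2, 10.1 and 13.1 CPM against 16.3, 17.1, 16.9, 15.2, 18.3 and 17.7 CPM, a logFC of 0.65 (SE 0.12). NNT had 27.6, 31.7, 24.5, 36.6 and 31.4 CPM against 39.8, 45.4, 43.2, 42.2, 42.4 and 42.5 CPM, a logFC of 0.49 (SE 0.09). For ITIH5 and NNT the high DFI boars varied less than the low DFI boars. GIMAP6, a GTPase of lymphoid cells, had a logFC of 0.87 (SE 0.14) and FBLN5, which assembles elastic fibres, one of 0.82 (SE 0.15), the larger ones of these 10. The other 5 lay between 0.33 for TXLNA, a partner of syntaxins, and 0.57 for ACAA1.

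**Figure D3:**
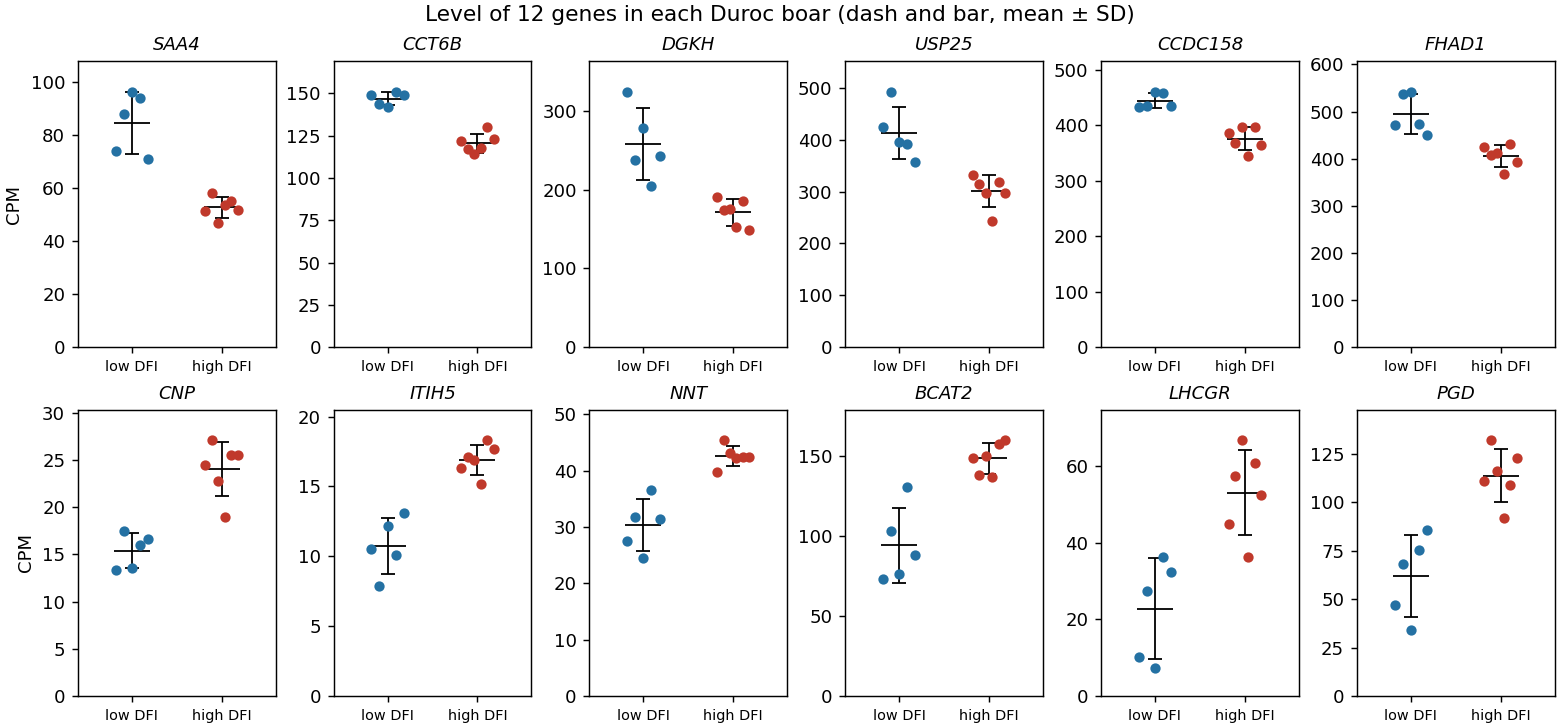
Points are the CPM of single Duroc boars for 12 genes, with the low DFI boars (n = 5) on the left and the high DFI boars (n = 6) on the right of each panel, and the dash and bar give the mean and SD. The axes start at 0, so shifts show in proportion to the level, and the low DFI boars scatter widely for LHCGR and PGD.

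The largest logFC with a symbol that passed the likelihood ratio test belonged to ADAMTS4, HAL, SHROOM1 and KLHL31. The aggrecanase ADAMTS4 had 0.484 to 1.67 CPM in the low DFI boars and 2.06, 2.72, 22.8, 1.11, 3.43 and 0.507 CPM in the high DFI boars. HAL, which starts histidine breakdown, had 0.638 to 1.35 CPM against 2.80, 3.71, 14.6, 0.778, 6.14 and 0.774 CPM. In both genes high DFI boar 3 was far above the others and high DFI boars 4 and 6 were at the level of the low DFI boars. Without high DFI boar 3 the logFC of ADAMTS4 went from 2.60 to 1.14 and that of HAL from 2.16 to 1.40. SHROOM1, which binds actin, rested less on a single boar, with 0.704 to 1.45 CPM against 1.35 to 5.97 CPM and a logFC of 1.59 (SE 0.34), or 1.38 to 1.76 with 1 boar left out. KLHL31, a kelch protein known from muscle, had a logFC of 1.54 (SE 0.44), or 1.34 to 2.13 with 1 boar left out, and low DFI boar 4 (3.69 CPM) lay among the high DFI boars (2.42 to 6.81 CPM).

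Most listed genes of meiosis and of spermatids were lower in high DFI boars. All lists here and below were chosen with earlier results of these data known. Their shares beside those of all kept genes are therefore descriptions and not tests. The lists of meiotic spermatocytes, the acrosome, the exchange of histones for protamines and the sperm tail held 77 different kept genes, of which 73 (94.8%) were lower in high DFI boars. At an unadjusted p under 0.05, 38 (49.4%) were lower and 0 higher, against 9.89% and 11.3% of all kept genes. Of the 77, 61 lay in the most abundant quartile, and all 61 were lower, 34 (55.7%) at an unadjusted p under 0.05, where 25.9% of all genes of that quartile were. None of the 77 passed the quasi-likelihood test, and 6 passed the likelihood ratio test, all lower. Over all kept genes 83 (0.566%) were lower by that test, 64 of them in the most abundant quartile. The 6 genes are also in the study's own list, which was made on these boars and is no independent evidence.

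The median logFC differed between the germ cell lists and was most negative in the lists of spermatid genes. The acrosome, exchange and tail lists group genes by function, not by successive stages. The median was -0.03 over 8 spermatogonial markers, -0.12 over 21 meiotic genes and -0.18 over 21 acrosome genes. It was -0.20 over 11 genes of the histone to protamine exchange and -0.22 over 25 genes of the sperm tail, against 0.01 over all genes. With library totals alone the list medians were 0.04, -0.06, -0.12, -0.14 and -0.15, so the sign of the spermatogonial list turned and the order stayed. With some single boars left out, the order of the acrosome, exchange and tail lists changed. Without low DFI boar 2 their medians were -0.195, -0.19 and -0.216, and without low DFI boar 4 -0.19, -0.169 and -0.249. Without high DFI boar 1 they were -0.203, -0.216 and -0.208. The spermatogonial median was also above 0 without low DFI boar 2 (0.03) and without high DFI boar 1 (0.01), and -0.01 without low DFI boar 3 or high DFI boar 4. The lists also differ in level: 61 of the 77 meiotic and spermatid genes lay in the most abundant quartile, which itself had a median of -0.08. These medians are descriptions, since members of a list share their boars and their cells, and the differences between lists were not tested.

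Among spermatogonial markers, 3 of 8 were higher and 5 lower, and only DDX4, an RNA helicase of all germ cells, had an unadjusted p under 0.05. DDX4 had 256, 255, 281, 227 and 239 CPM in the low and 232, 226, 217, 191, 226 and 207 CPM in the high DFI boars (logFC -0.22, SE 0.07, adjusted p = 0.13). ZBTB16, a factor of spermatogonial stem cells, had 2.61 to 4.54 CPM against 3.08 to 5.89 CPM, with a logFC of 0.14 (SE 0.19). That value was 0.00 without high DFI boar 4, which had the 5.89 CPM, and 0.04, 0.09 and 0.23 without low DFI boars 4, 2 and 3. NANOS2, GFRA1 and LIN28A, other stem cell markers, stayed below the filter.

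Of the meiotic genes, 19 of 21 were lower, 7 of them at an unadjusted p under 0.05, and 13 were lower with library totals alone. For this list and the spermatid lists below, 9.89% of all kept genes were lower at that threshold. In the most abundant quartile 25.9% were, and 73.3% were lower at any p. SYCP3, of the axis of meiotic chromosomes, had 270, 256, 283, 244 and 234 CPM in the low and 215, 220, 199, 186, 240 and 215 CPM in the high DFI boars. High DFI boar 5 lay above low DFI boar 5, and the logFC was -0.27 (SE 0.07, adjusted p = 0.11). MAEL, which guards germ cells against transposons, had 90.9 to 119 CPM against 85.7 to 101 CPM (logFC -0.27, SE 0.07). HORMAD2 and SYCE1, also of meiotic chromosomes, had logFC of -0.21 (SE 0.06) and -0.19 (SE 0.06). At the other end of the list, MSH4 of meiotic crossing over had a logFC of 0.22 (SE 0.11), and the cohesin STAG3 was at 579 ± 131 and 576 ± 111 CPM (SD, n = 5 and 6), with a logFC of -0.12 to 0.09 with 1 boar left out.

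Of the acrosome genes, 20 of 21 were lower and 10 had an unadjusted p under 0.05, or 6 without low DFI boar 3. PLCZ1, the sperm phospholipase that starts calcium waves in the egg, had 412, 492, 486, 372 and 369 CPM in the low and 366, 345, 260, 249, 361 and 321 CPM in the high DFI boars. The groups only just parted, at a logFC of -0.43 (SE 0.12, adjusted p = 0.12). CAPZA3, an actin-capping protein of sperm, had 379 to 503 CPM against 272 to 377 CPM (logFC -0.37, SE 0.10). IZUMO1, which binds the egg, had 62.4 to 78.0 CPM against 55.9 to 64.4 CPM (logFC -0.24, SE 0.07), and the spermatid kinase TSSK3 had 130 to 153 CPM against 106 to 130 CPM (logFC -0.20, SE 0.06). Values of high DFI boar 4 were the lowest in all 4 genes.

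All 11 genes of the histone to protamine exchange were lower, or 10 with library totals alone, and 5 of them had an unadjusted p under 0.05. That number rested on single boars: it was 1 with library totals alone or without low DFI boar 2, 2 without high DFI boar 3, and 3 without low DFI boar 4, high DFI boar 2 or high DFI boar 4. TNP1, a transition protein, had 4381, 4996, 4200, 5689 and 4140 CPM in the low and 4456, 3842, 4062, 3148, 4082 and 4050 CPM in the high DFI boars. The groups overlapped, and the logFC was -0.25 (SE 0.10, adjusted p = 0.20). PRM2, a protamine, had 1080 to 1689 CPM against 869 to 1234 CPM (logFC -0.29, SE 0.12, adjusted p = 0.20), and PRM1, with a logFC of -0.18 (SE 0.12), had 3866 to 5524 CPM against 3072 to 4440 CPM. Without low DFI boar 4, which had the most of both, these logFC were -0.18 for PRM2 and -0.09 for PRM1, and that of PRM1 was -0.12 without high DFI boar 4. BRDT, which reads acetylated histones before their removal, separated the groups, with 166 to 189 CPM against 141 to 163 CPM (logFC -0.20, SE 0.05, adjusted p = 0.11). CHD5, a chromatin remodeller of spermatids, had a logFC of -0.21 (SE 0.09).

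Of the germ cell lists, that of the sperm tail had the largest share of members with an unadjusted p under 0.05, at 16 of 25, all lower, and 24 of 25 were lower (21 with library totals alone). CYLC2, a protein of the sperm head skeleton that was listed here with the tail, had the most negative logFC, at -0.44 (SE 0.12), with 155 to 226 CPM against 98.7 to 154 CPM. SPATA19, of sperm mitochondria, had 370, 390, 455, 405 and 327 CPM in the low and 302, 353, 307, 229, 304 and 281 CPM in the high DFI boars. High DFI boar 2 lay above low DFI boar 5, and the logFC was -0.40 (SE 0.10, adjusted p = 0.11). The ciliary proteins CFAP44 and TEKT3 had logFC of -0.34 (SE 0.09) and -0.28 (SE 0.08), and ROPN1L, of the fibrous sheath, one of -0.32 (SE 0.09). TEKT3 separated the groups, at 385 to 480 CPM against 288 to 376 CPM. The sperm calcium channel subunit CATSPER3, the highest of the list, was at 0.01 (SE 0.16), or -0.11 to 0.12 with 1 boar left out.

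**Figure D4:**
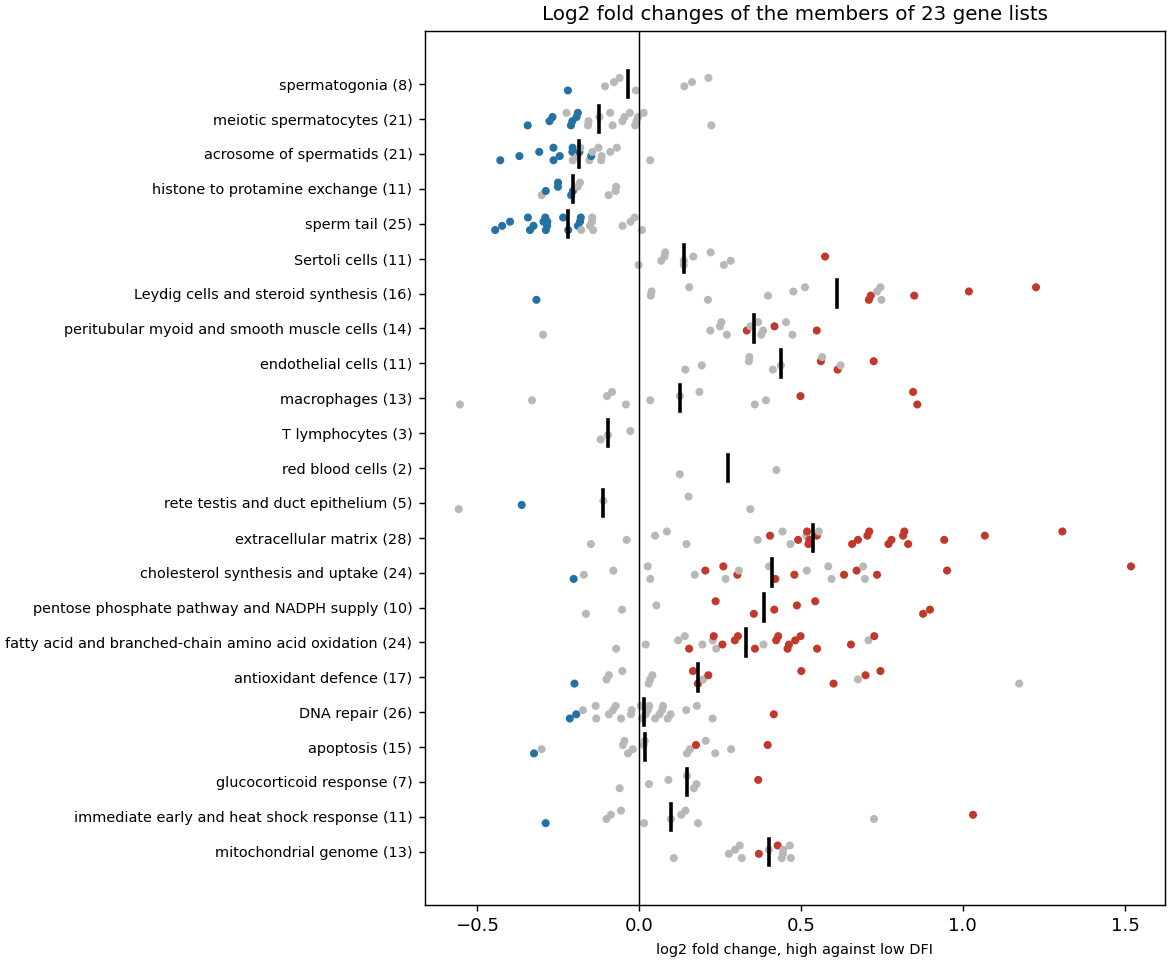
Each point is a kept member of 1 of 23 gene lists, placed by its log2 fold change of high against low DFI boars; blue and red mark an unadjusted p under 0.05, the number in brackets is that of kept members, and the black bar is the median. Members of the meiotic and spermatid lists lie mostly left of 0 within a narrow range, and those of the Leydig cell, matrix, cholesterol, NADPH and oxidation lists lie mostly right of 0 over a wider one.

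Markers of the somatic cells of the testis were mostly higher in high DFI boars. Over Sertoli, Leydig, peritubular and endothelial lists together, 49 of 52 kept genes were higher. For the Sertoli list this rested on high DFI boar 4: 1 of its 11 genes was lower with that boar and 5 without it. At an unadjusted p under 0.05, 12 of the 52 (23.1%) were higher, against 11.3% of all kept genes, and 0 passed the quasi-likelihood test. The same 11.3% applies to the counts of the single somatic lists below. Lower at an unadjusted p under 0.05 was 1 gene, SRD5A2, which reduces testosterone and was measured at 1.63 to 2.41 CPM against 1.41 to 1.68 CPM (logFC -0.32, SE 0.13).

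The Leydig list had a median logFC of 0.61 over 16 genes, of which 15 were higher and 5 higher at an unadjusted p under 0.05. LHCGR, the receptor of luteinizing hormone, had 10.16, 27.5, 7.26, 36.3 and 32.4 CPM in the low and 44.9, 57.5, 66.8, 36.4, 60.8 and 52.6 CPM in the high DFI boars. The groups parted by 36.3 against 36.4 CPM, and the logFC was 1.23 (SE 0.37, adjusted p = 0.13), or 0.999 without low DFI boar 3. CYP11A1, which cuts the side chain of cholesterol in the first step of steroid synthesis, had 76.0, 225, 42.7, 254 and 160 CPM against 284, 330, 362, 194, 304 and 365 CPM (logFC 1.02, SE 0.38). FDXR, of the electron supply of that enzyme, had 20.8, 39.1, 15.9, 43.1 and 50.7 CPM against 55.9, 67.6, 58.4, 65.8, 56.7 and 62.5 CPM (logFC 0.85, SE 0.25). In all 3 genes low DFI boars 1 and 3 were far below the other low DFI boars. LHCGR, CYP11A1 and FDXR passed the likelihood ratio test and are in the study's list. NR5A1, the factor that drives steroid genes, had a logFC of 0.71 (SE 0.24). INSL3, with 897, 1812, 377, 2572 and 1116 CPM in the low and 1599 to 2843 CPM in the high DFI boars, had one of 0.75 (SE 0.37, adjusted p = 0.26).

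The low DFI boars thus fell into different levels on this list. The mean of its members, as log2(CPM + 0.5) less each gene's mean over the 11 boars, was -0.76 in low DFI boar 1 and -1.17 in low DFI boar 3, -0.22 in low DFI boar 5, and 0.18 and 0.24 in low DFI boars 2 and 4. The high DFI boars lay between -0.002 and 0.45. Low DFI boars 2 and 4 were therefore above 2 of the 6 high DFI boars, boars 1 and 4. The number of members at an unadjusted p under 0.05 was 4 to 7 with 1 boar left out.

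Sertoli cell markers differed little apart from 1 boar. Their median logFC was 0.14 over 11 genes, and 0.00 without high DFI boar 4. That boar had 32.1 CPM of FSHR, the receptor of follicle-stimulating hormone, against 10.6 to 17.1 CPM in the other 10 boars, and its mean over the list was 0.59 where all other boars were between -0.14 and 0.03. An unadjusted p under 0.05 was found for 1 of the 11. WT1 was at 33.5 ± 4.09 and 33.5 ± 3.97 CPM (SD, n = 5 and 6).

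Peritubular and smooth muscle markers had a median logFC of 0.36, with 13 of 14 higher and 3 at an unadjusted p under 0.05, a number that was 8 without low DFI boar 5 or high DFI boar 1 and 1 without low DFI boar 2, 3 or 4 or high DFI boar 3. CALD1 had 26.4 to 44.9 CPM in the low and 33.7 to 56.6 CPM in the high DFI boars (logFC 0.42, SE 0.15). Endothelial markers had a median logFC of 0.44, or 0.27 without low DFI boar 3 and 0.68 without low DFI boar 5, and all 11 were higher, 3 at an unadjusted p under 0.05. That number was 9 without low DFI boar 5, 6 without low DFI boar 1 and 1 without low DFI boar 4. ENG, a receptor on vessel walls, had 24.0, 14.8, 15.4, 13.9 and 26.4 CPM in the low and 22.8, 42.5, 27.8, 30.5, 26.5 and 37.3 CPM in the high DFI boars (logFC 0.72, SE 0.21, adjusted p = 0.12). Low DFI boars 1 and 5 reached the lower high DFI boars in ENG and in PECAM1, an adhesion molecule of the endothelium, where they had 35.6 and 29.8 CPM against 29.2 to 43.6 CPM.

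Among macrophage markers 8 of 13 were higher, with a median logFC of 0.13, or 0.05 without high DFI boar 4. The receptor CSF1R had 0.807 to 1.65 CPM against 1.48 to 2.32 CPM (logFC 0.86, SE 0.21), and the adaptor TYROBP 0.726 to 1.37 CPM against 1.14 to 2.06 CPM (logFC 0.85, SE 0.21). Both were measured at low levels, with at most 109 reads per boar. Most low DFI boars were below 1 CPM in both genes, so they passed the filter through the high DFI boars. SPI1, a factor of myeloid cells, went the other way, with a logFC of -0.55 (SE 0.29), so the list did not move together.

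Extracellular matrix genes were mostly higher in high DFI boars. Of 28 genes, 26 were higher, and the median logFC was 0.54. An unadjusted p under 0.05 was found for 18, all higher, where 11.3% of all kept genes were. The number was 17 to 19 with any 1 boar left out, and 0 passed the quasi-likelihood test. By the likelihood ratio test 12 were higher, against 2% of all kept genes. These 12 are all in the study's list, which was made on these boars. FBLN5 had 8.24, 11.6, 13.9, 12.9 and 13.2 CPM in the low and 21.2, 24.0, 22.6, 21.1, 23.4 and 14.5 CPM in the high DFI boars. FBLN1, another fibulin, had 4.26 to 5.79 CPM against 5.91 to 9 CPM (logFC 0.53, SE 0.14, adjusted p = 0.12). Both fibulins separated the groups, and they were the only 2 of the 28 matrix genes that did, against 1.9% of all kept genes. COL6A1, of the collagen VI microfibrils, had 4.95 to 10 CPM against 9.83 to 21.7 CPM (logFC 0.83, SE 0.22), with the highest level in high DFI boar 4. COL3A1, of fibrillar collagen, had the largest logFC of the list, at 1.31 (SE 0.48), and rested on the same boar, with 255 CPM there, 45.2 to 74.4 CPM in the other high DFI boars and 21.0 to 59.4 CPM in the low DFI boars. Without high DFI boar 4 its logFC was 0.69. The laminin chain LAMB1, at the other end, had a logFC of -0.15 (SE 0.12), or -0.07 without high DFI boar 4 and -0.09 without low DFI boar 2.

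Most genes of lipid, NADPH and oxidative metabolism were higher as well. Over cholesterol, pentose phosphate and NADPH, oxidation and antioxidant lists together, 65 of 75 kept genes were higher. At an unadjusted p under 0.05, 39 of the 75 (52%) were higher, against 11.3% of all kept genes, and 2 were lower. Of the 75 genes, 38 lay in the most abundant quartile, where 5.32% of all genes were higher at an unadjusted p under 0.05. Of the 39, 0 passed the quasi-likelihood test and 18 the likelihood ratio test, by which 2% of all kept genes were higher. Those 18 are in the study's list, which was made on these boars and is no independent evidence.

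In the cholesterol list 21 of 24 genes were higher, 10 at an unadjusted p under 0.05 (17 without high DFI boar 4), with a median logFC of 0.41. SCAP, a sterol-sensing escort protein, had 61.8 to 76.6 CPM against 78.4 to 96.8 CPM (logFC 0.30, SE 0.07). NPC1, which moves cholesterol out of lysosomes, had 22.4 to 43.3 CPM against 35.3 to 60.7 CPM (logFC 0.63, SE 0.19). NSDHL, a late enzyme of cholesterol synthesis, went the other way, at 345 to 440 CPM against 301 to 380 CPM (logFC -0.20, SE 0.08).

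The enzymes that supply NADPH were mostly higher. PGD, of the pentose phosphate pathway, had 46.8, 68.1, 34.1, 75.5 and 85.5 CPM in the low and 111, 132, 116, 92.0, 109 and 123 CPM in the high DFI boars. The groups did not overlap, and the logFC was 0.88 (SE 0.20, adjusted p = 0.11). TKT, of the same pathway, had 55.7 to 76.0 CPM against 80.7 to 97.2 CPM (logFC 0.42, SE 0.09). Of the 10 genes in this list 8 were higher, 7 at an unadjusted p under 0.05, and the mitochondrial IDH2 was the lowest, at -0.16 (SE 0.11), or -0.02 without low DFI boar 3.

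In the list of fatty acid and branched-chain amino acid oxidation 23 of 24 genes were higher, 15 at an unadjusted p under 0.05 (10 to 17 with 1 boar left out), with a median logFC of 0.33. BCAT2, the mitochondrial transaminase of branched-chain amino acids, had 73.0, 103, 76.4, 131 and 88.2 CPM in the low and 149, 138, 150, 137, 158 and 160 CPM in the high DFI boars. The high DFI boars were tightly grouped, and the logFC was 0.65 (SE 0.13, adjusted p = 0.11). ACOX2, a peroxisomal oxidase of branched fatty acids, had 2.45 to 5.24 CPM against 6.17 to 7.09 CPM (logFC 0.73, SE 0.16), ACADS, of short-chain fatty acids, 24.3 to 33.5 CPM against 33.8 to 44.2 CPM (logFC 0.46, SE 0.10), and MCCC2 8.63 to 11.9 CPM against 13.4 to 16.7 CPM (logFC 0.50, SE 0.09). All 4 separated the groups, but they were named for their small p. Of the 24 members, 5 were higher in every high DFI boar, against 1.9% of all kept genes.

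Antioxidant genes were split. Of 17, 13 were higher and 7 had an unadjusted p under 0.05 in that direction (4 without low DFI boar 1), while PRDX4, a peroxiredoxin of the endoplasmic reticulum, was lower (logFC -0.20, SE 0.09). CAT, the hydrogen peroxide-splitting catalase, had 59.1, 95.2, 48.5, 99.8 and 91.2 CPM in the low and 116, 133, 111, 108, 126 and 123 CPM in the high DFI boars (logFC 0.60, SE 0.17, adjusted p = 0.12). PRDX3, the mitochondrial peroxiredoxin, had 81.4 to 225 CPM against 203 to 268 CPM (logFC 0.75, SE 0.22), with low DFI boars 1 and 3 lowest. TXNRD2, its mitochondrial partner reductase, had 4.06 to 5.29 CPM against 5.50 to 7.91 CPM (logFC 0.50, SE 0.12). GPX4, the glutathione peroxidase that spermatids use in their mitochondrial sheath, had a logFC of -0.10 (SE 0.09), or -0.05 to -0.16 with 1 boar left out.

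The lists shared some boars at their ends and differed in others. Low DFI boar 3 was the highest in the meiotic (0.116), acrosome (0.293) and sperm tail (0.292) lists. It was the lowest in the Leydig (-1.17), peritubular (-0.456), endothelial (-0.766), matrix (-0.638), cholesterol (-0.558), oxidation (-0.473) and antioxidant (-0.423) lists. In the means of the meiotic list the groups overlapped through low DFI boar 5 (-0.025), and in those of the sperm tail they did not, with -0.012 in low DFI boar 5 and -0.045 in the highest high DFI boar. Low DFI boars 1 and 3 were the lowest in the Leydig, NADPH, oxidation and antioxidant lists, and low DFI boars 2 to 4 in the endothelial list. High DFI boar 4 was the lowest in the acrosome, histone to protamine and sperm tail lists and the highest in the Sertoli and matrix lists, and at -0.45 it was below low DFI boar 1 in the cholesterol list. Without it, the medians of the 4 meiotic and spermatid lists, and of the matrix list (0.45), kept their signs. The medians of the meiotic and spermatid lists and of the somatic marker lists had opposite signs, and their part in the differences of single genes was not tested.

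**Figure D5:**
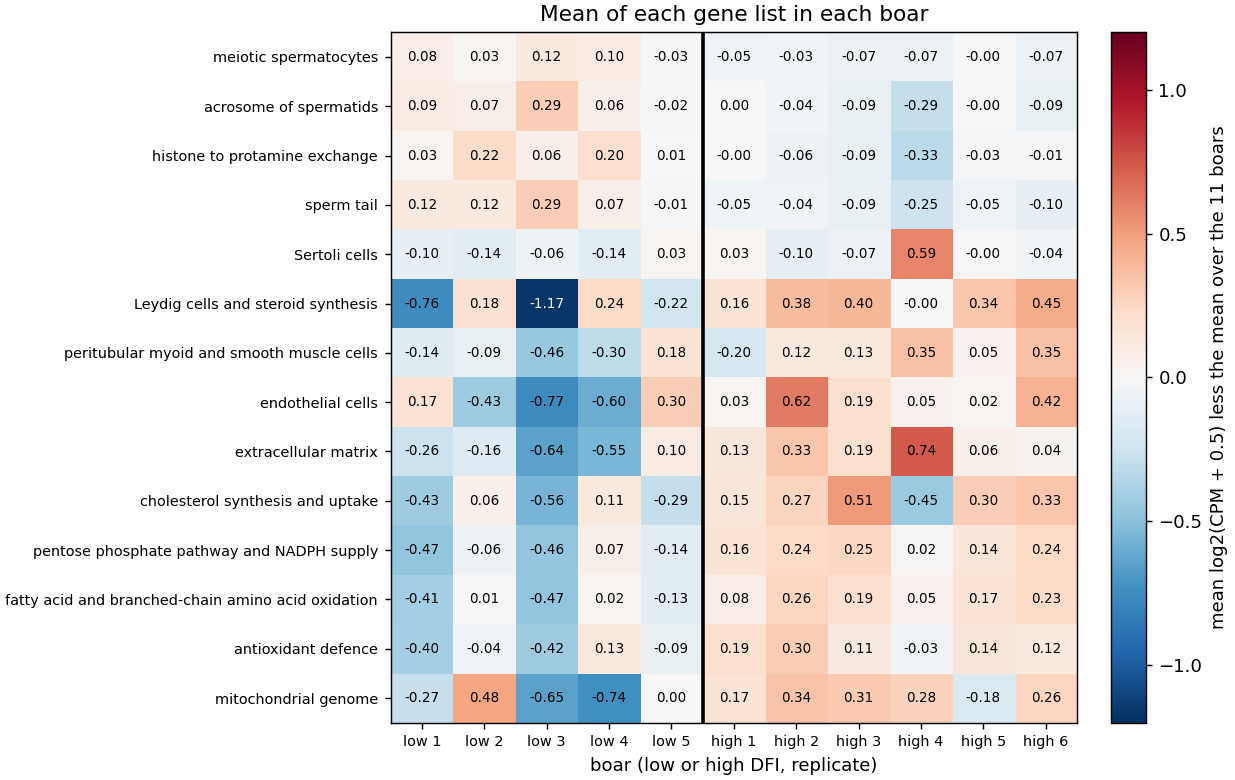
Each cell gives, for 1 boar and 1 gene list, the mean over the kept members of log2(CPM + 0.5) less each gene's mean over the 11 boars, with blue for lower and red for higher values and a line between the low and the high DFI boars. The lowest cells are the Leydig list (-1.17) and the endothelial list (-0.77) in low DFI boar 3 and the Leydig list in low DFI boar 1 (-0.76), and high DFI boar 4 stands out in the spermatid, Sertoli and matrix lists.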

How the data were processed

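Total RNA of testis (RIN above 8.5) was sequenced from unstranded TruSeq libraries. The authors aligned reads with TopHat2 2.0.12 to the pig genome build Sscrofa10.2, and the deposited values are whole-number counts per Ensembl gene made with HTSeq without strand, so reads of overlapping or antisense genes cannot be told apart. The lowest value in any library was 1, held by 216 genes in every boar, and how this floor arose is not given in the sources used here. Groups came from the sample labels. The authors' supplementary comparisons were used only to mark which genes they list and to name SAA4.

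Genes above 1 CPM in at least 6 of 11 boars (5 with a boar left out) were kept, with 99.8% of counts. Differences were tested in edgeR 4.0.16 by its quasi-likelihood F-test (R 4.3.3, TMM, Benjamini-Hochberg adjustment over all kept genes, no covariates), tested on simulated data. The SE is the logFC over the square root of F. Printed CPM are TMM-scaled. Symbols were found for 9584 kept genes (65.3%) in the gene table. Alternatives were the likelihood ratio test, DESeq2 1.42.0, voom of limma 3.58.1, robust fitting, RLE, library totals, other filters, values lowered by 1 and leaving out each boar. No sequencing batch is given in the sources used here.

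Named were the called genes, 12 separated genes per direction with the smallest p, the 4 largest and 4 smallest logFC called by the likelihood ratio test, and per list the 4 members with the smallest p and those at its range or near 0. PRM1, INSL3, STAG3 and GPX4 were named after their values were seen. The members and lists were chosen with earlier results of these data known. Where a symbol had more than one identifier, the one with most counts was used. Results of some genes under this rule are not reported here. HSP70.2 has near-identical copies and is uncertain. Landrace samples were not used here.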

Additional observations from a re-analysis of the deposited data

Results flagged for a closer look

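A boar far from the others of its group was found in 11 of 108 groups of values checked with Dixon's criterion, where chance gives about 1 in 20. Single genes were ACAA1 in low DFI boar 3 (5.04 CPM, the next boar 5.76), FBLN5 in high DFI boar 6 (14.5 CPM, the next 21.1), MCCC2 in high DFI boar 4 (16.7 CPM, the next 14.4), ADAMTS4 in high DFI boar 3 (22.8 CPM, the next 3.43) and PAPPA in low DFI boar 3 (21.3 CPM, the next 14.1). Among the means of gene lists, high DFI boar 4 lay apart in the acrosome (-0.286, the next -0.092), histone to protamine (-0.326, the next -0.085) and sperm tail lists (-0.251, the next -0.100) and in the Sertoli list (0.590, the next 0.026). Low DFI boar 3 lay apart in the rete testis and duct epithelium list (-0.754, the next 0.084), and high DFI boar 5 in the mitochondrial genome list (-0.178, the next 0.165). The groups checked share their boars and are not independent, so 1 in 20 is only a rough guide, and not every named gene was among them. What sets these boars apart was not tested.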

How the results depend on the processing

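The 2 genes with an adjusted p under 0.05 became 376 with the likelihood ratio test, 869 with DESeq2, 1 with limma and voom and 0 without a filter (3405 then had an unadjusted p under 0.05), and 0 to 17 with 1 boar left out, 17 without low DFI boar 5. The 3107 genes with an unadjusted p under 0.05 became 2236 to 3581 with 1 boar left out. The lower share of 46.7% was 44.2% with the likelihood ratio test, 50.1% with DESeq2, 49.6% with RLE, 23.9% with library totals and 42.2% to 48.7% with 1 boar left out. The 482 genes with groups that did not overlap became 542 to 1250 with 1 boar left out, where fewer boars have to be separated: 738 without low DFI boar 2, 816 without low DFI boar 4, 1250 without low DFI boar 5 and 796 without high DFI boar 5. Of 2360 values of the 118 genes taken by the naming rule, 2350 kept their direction. The others were the logFC of CD4 (-0.03), at 0.0521 with library totals and -0.3306 to 0.0765 with 1 boar left out, of CD247 (-0.12), at -0.269 to 0.0181, and of SLC4A1 (0.13), at -0.1935 to 0.3383. The causes were not tested. List medians changed sign for spermatogonia (0.04 with library totals, 0.03 without low DFI boar 2, 0.01 without high DFI boar 1), rete testis (0.001 without high DFI boar 6), DNA repair (-0.002 without low DFI boar 1, -0.04 without low DFI boar 4, -0.02 without high DFI boar 4) and immediate early genes (-0.06 without high DFI boar 3). No paired analysis was possible because the labels give no replicate numbers that tie high to low DFI boars.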

Other observations

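DNA repair genes differed little, with 15 of 26 higher, 11 lower and a median logFC of 0.02, which was -0.04 to 0.05 with 1 boar left out. XPC, which recognizes damaged DNA in nucleotide excision repair, separated the groups, with 28.0, 29.9, 22.4, 28.2 and 31.6 CPM in the low and 35.7, 39.7, 38.2, 41.4, 32.3 and 37.1 CPM in the high DFI boars (logFC 0.42, SE 0.09, adjusted p = 0.11). XRCC6, of the joining of broken ends, had a logFC of -0.21 (SE 0.09) and BRCA1, of homologous repair, one of -0.19 (SE 0.08), or -0.12 without low DFI boar 3. In the apoptosis list 9 of 15 genes were higher, with a median of 0.02, or 0.01 to 0.07 with 1 boar left out. AIFM1, a mitochondrial flavoprotein, separated the groups at 13.2 to 18.0 CPM against 19.2 to 24.1 CPM (logFC 0.40, SE 0.09), and AVEN, an inhibitor of apoptosis, had 118 to 157 CPM against 101 to 133 CPM (logFC -0.32, SE 0.09).

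All 13 genes of the mitochondrial genome were higher, with a median logFC of 0.40 (0.61 without low DFI boar 2), and their summed level was 8930 to 19900 CPM in the low and 13600 to 18300 CPM in the high DFI boars, so the groups overlapped. These 13 genes share their boars and are not independent of each other. An unadjusted p under 0.05 was found for 2 of the 13, where 11.3% of all kept genes were higher at that threshold. The number was 12 without low DFI boar 2 and 0 without low DFI boar 3. In the glucocorticoid list 6 of 7 genes were higher (median 0.15, or 0.06 without low DFI boar 3, 0.08 without low DFI boar 1, 0.09 without high DFI boar 4 and 0.25 without low DFI boar 5), and in the immediate early and heat shock list 7 of 11 (median 0.10, or -0.06 without high DFI boar 3). JUNB, an immediate early factor, had 2.49 to 7.41 CPM against 6.14 to 19.3 CPM, the highest in high DFI boar 3 (logFC 1.03, SE 0.34). With 1 boar left out, the median of the 3 kept T lymphocyte markers (-0.09) was -0.13 to -0.02, that of the 2 red blood cell markers (0.28) was 0.12 to 0.42, and that of the 5 rete testis and duct markers (-0.11) was -0.21 to 0.00, with EPCAM between 2.37 and 32.8 CPM and overlapping groups.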
